A study of Mus musculus with 6 samples.

Results

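The insulin-like growth factor (IGF) family was followed in 3T3-L1 adipocytes through 10 genes: the ligands Igf1 and Igf2, the receptors Igf1r and Igf2r, and the binding protein genes Igfbp2, Igfbp3, Igfbp4, Igfbp5, Igfbp6 and Igfbp7. They were taken from the 18194 genes with a probe set annotated to them alone, and 28 such probe sets belong to the 10 genes. Each gene was read from the brightest of its probe sets on average, and its other probe sets served as a check. 3T3-L1 is a mouse preadipocyte line that turns into fat cells after hormonal induction, here with insulin, isobutylmethylxanthine and dexamethasone for 2 days. The cells were then kept with insulin and treated for 5 days. In the second experiment every group received the HIV protease inhibitor ritonavir (20 µM) together with the conjugated linoleic acid (CLA) isomer t10,c12-CLA at 100 µM, the isomer c9,t11-CLA at 100 µM, or DMSO at 0.1%. In the first experiment the groups received ritonavir (20 µM), the nucleotide analogue tenofovir (1 µM), which blocks reverse transcriptase, or the vehicle ethanol (0.1%). RNA of 4 replicate experiments was pooled for each of the 6 groups and hybridised to 1 array. A spread between replicates can therefore not be given, no difference was tested, and every comparison below is one array against another in 1 cell line.

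IGF1 and IGF2 are secreted relatives of insulin that signal through the IGF1 receptor, a tyrosine kinase. The IGF2 receptor, which is also a mannose 6-phosphate receptor, binds IGF2 and carries it to lysosomes. The IGF binding proteins hold the ligands outside the cell and can limit or prolong their action, and proteases release the ligands by cutting the binding proteins. In 3T3-L1 cells the high insulin of the induction medium is known to act in part through the IGF1 receptor.

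All values are RMA log2 values, in which 1 unit is a 2-fold difference. A gene was called detected if any of the arrays gave a value of 6.55, the median of the table, or more. By this convention 9 of the 10 genes were detected, and 8 lay at or above that level on every array. Igfbp2 lay under it throughout, between 5.48 and 5.56, and no difference is read from it. Of the 9 detected genes only Igf2, with a range of 3.58, and Igfbp5, with 1.12, spanned at least 1 unit over the arrays.

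Promoter windows of the genes on which the results turn are shown first, since Igf2 has several starts and since Igf1 and Igfbp4 were low on the same array. The windows run from 250 bases before to 50 bases after a transcript start and come from RefSeq on GRCm38.p6, where all 10 genes matched with 14 windows in all. Which of the starts the Igf2 probe sets report was not analysed here. Igf2 lies on the minus strand of chromosome 7 and has 4 windows, at chr7:142666767-142667066, chr7:142661222-142661521, chr7:142658755-142659054 and chr7:142657447-142657746, given here in the order of transcription. Igf1 lies at chr10:87860861-87861160 and Igfbp4 at chr11:99040994-99041293, both on the plus strand. Capitals mark matches on either strand to the TATA box (TATAAA), the GC box (GGGCGG), the CCAAT box (CCAAT), the STAT motif (TTCNNNGAA), the forkhead motif (TGTTTAC), the AP-1 motif (TGANTCA) or the E-box (CACGTG).
Igf2 start 1: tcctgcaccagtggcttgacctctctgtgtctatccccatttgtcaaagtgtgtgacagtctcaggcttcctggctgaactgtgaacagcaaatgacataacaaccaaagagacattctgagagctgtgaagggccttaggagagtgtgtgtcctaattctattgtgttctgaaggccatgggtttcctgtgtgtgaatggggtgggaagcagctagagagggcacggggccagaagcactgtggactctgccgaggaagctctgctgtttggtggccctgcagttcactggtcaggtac
Igf2 start 2: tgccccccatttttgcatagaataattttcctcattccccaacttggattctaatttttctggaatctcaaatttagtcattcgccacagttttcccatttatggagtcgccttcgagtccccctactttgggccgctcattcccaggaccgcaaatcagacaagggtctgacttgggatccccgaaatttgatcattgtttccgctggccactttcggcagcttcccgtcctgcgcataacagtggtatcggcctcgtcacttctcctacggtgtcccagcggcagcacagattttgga
Igf2 start 3: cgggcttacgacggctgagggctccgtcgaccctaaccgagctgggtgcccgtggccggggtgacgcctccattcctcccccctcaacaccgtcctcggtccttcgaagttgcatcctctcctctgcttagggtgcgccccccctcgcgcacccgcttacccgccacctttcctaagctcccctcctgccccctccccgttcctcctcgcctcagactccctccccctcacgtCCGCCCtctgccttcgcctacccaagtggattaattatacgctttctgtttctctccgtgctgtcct
Igf2 start 4: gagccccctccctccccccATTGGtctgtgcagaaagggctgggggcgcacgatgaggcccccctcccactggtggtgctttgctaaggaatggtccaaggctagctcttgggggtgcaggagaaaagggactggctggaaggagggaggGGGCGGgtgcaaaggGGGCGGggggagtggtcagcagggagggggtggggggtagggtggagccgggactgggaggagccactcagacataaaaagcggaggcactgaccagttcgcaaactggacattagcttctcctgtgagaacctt
Igf1: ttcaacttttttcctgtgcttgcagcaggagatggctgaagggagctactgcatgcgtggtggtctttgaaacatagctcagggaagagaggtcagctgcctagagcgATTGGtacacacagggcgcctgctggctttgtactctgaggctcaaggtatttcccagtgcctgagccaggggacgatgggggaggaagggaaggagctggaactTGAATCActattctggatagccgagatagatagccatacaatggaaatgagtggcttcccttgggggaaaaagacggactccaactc
Igfbp4: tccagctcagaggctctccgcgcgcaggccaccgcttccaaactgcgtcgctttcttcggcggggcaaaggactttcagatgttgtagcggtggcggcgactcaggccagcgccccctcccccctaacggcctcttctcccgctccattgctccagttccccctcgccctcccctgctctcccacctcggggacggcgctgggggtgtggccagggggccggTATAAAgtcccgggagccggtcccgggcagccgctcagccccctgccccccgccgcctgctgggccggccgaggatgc

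The windows of Igf2 starts 1 and 2 hold none of these motifs. That of start 3 holds 1 GC box, and that of start 4 holds 2 GC boxes and a CCAAT box. The Igf1 window holds a CCAAT box and an AP-1 motif, at positions -37 to -31 from the start, and that of Igfbp4 a TATA box at -28 to -23. The windows of Igf1 and Igfbp4 thus share no motif searched. No marked matches overlap in the printed windows. Among 32851 windows of the same length, 13.6% held the TATA box, 35.7% the GC box, 37.4% the CCAAT box, 8.3% the STAT motif, 3.65% the forkhead motif, 7.81% the AP-1 motif and 7.15% the E-box. The GC content was 52.3%, 49.7%, 64.7% and 63.3% in the Igf2 windows, 52.3% in that of Igf1 and 71.3% in that of Igfbp4, against a median of 52.7%. These matches describe the letters and were not tested as binding sites.

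The labelled cell type was checked with 12 mature adipocyte markers, 11 of which had a named, detected probe set. Adipoq, the gene of adiponectin, stood at 13.08 with t10,c12-CLA, 14.67 with c9,t11-CLA and 14.64 with DMSO, all with ritonavir, at 10.18 with ritonavir alone, at 14.82 with tenofovir and at 14.79 with ethanol. Pparg, the master regulator of fat cell differentiation, stood at 11.25, 12.09, 11.89, 10.48, 12.95 and 12.97 on the same arrays. The summed log2 level of the 11 markers was 120.7, 134.7, 133.3, 104.7, 142.9 and 142.6 in that order of arrays. That of 10 detected preadipocyte and fibroblast markers was 122.1, 117.7, 116.7, 130.1, 121.3 and 121.6. The ritonavir array was thus lowest in the first and highest in the second list. Of other cell types, 3 of 6 macrophage, 1 of 6 endothelial, 2 of 6 skeletal muscle, 2 of 6 hepatocyte and 5 of 6 epithelial markers were detected, and the leukocyte genes Ptprc and Itgam, the endothelial gene Pecam1 and the epithelial gene Cdh1 were not detected. Some detected markers of other types differed between the arrays. Cd68, a lysosomal protein gene used as a macrophage marker, stood at 10.10 with t10,c12-CLA, 8.11 with c9,t11-CLA, 8.43 with DMSO and 8.71 with ritonavir alone, against 6.75 with tenofovir and 6.87 with ethanol. The keratin gene Krt19 stood at 5.99, 5.71, 6.11 and 6.07 with ritonavir, against 8.40 with tenofovir and 8.51 with ethanol. The summed log2 level of the 3 detected macrophage markers lay between 24.3 and 26.9 with ritonavir, against 22.0 with tenofovir and 22.4 with ethanol. Of these, Cd14 was also higher on each array with ritonavir, while Csf1r was highest with ethanol, at 7.66. The summed log2 level of the 5 detected epithelial markers lay between 33.2 and 33.9 with ritonavir, against 38.3 with tenofovir and 38.9 with ethanol. Among them Krt8, Krt18 and Krt19 reached the detection level only on the 2 arrays without ritonavir, so that part of this difference follows from the filter. In such bulk RNA, fewer cells of a type and less RNA per cell cannot be told apart. The part of these markers in the results below was not tested, except where a value is given.

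**Figure D1:**
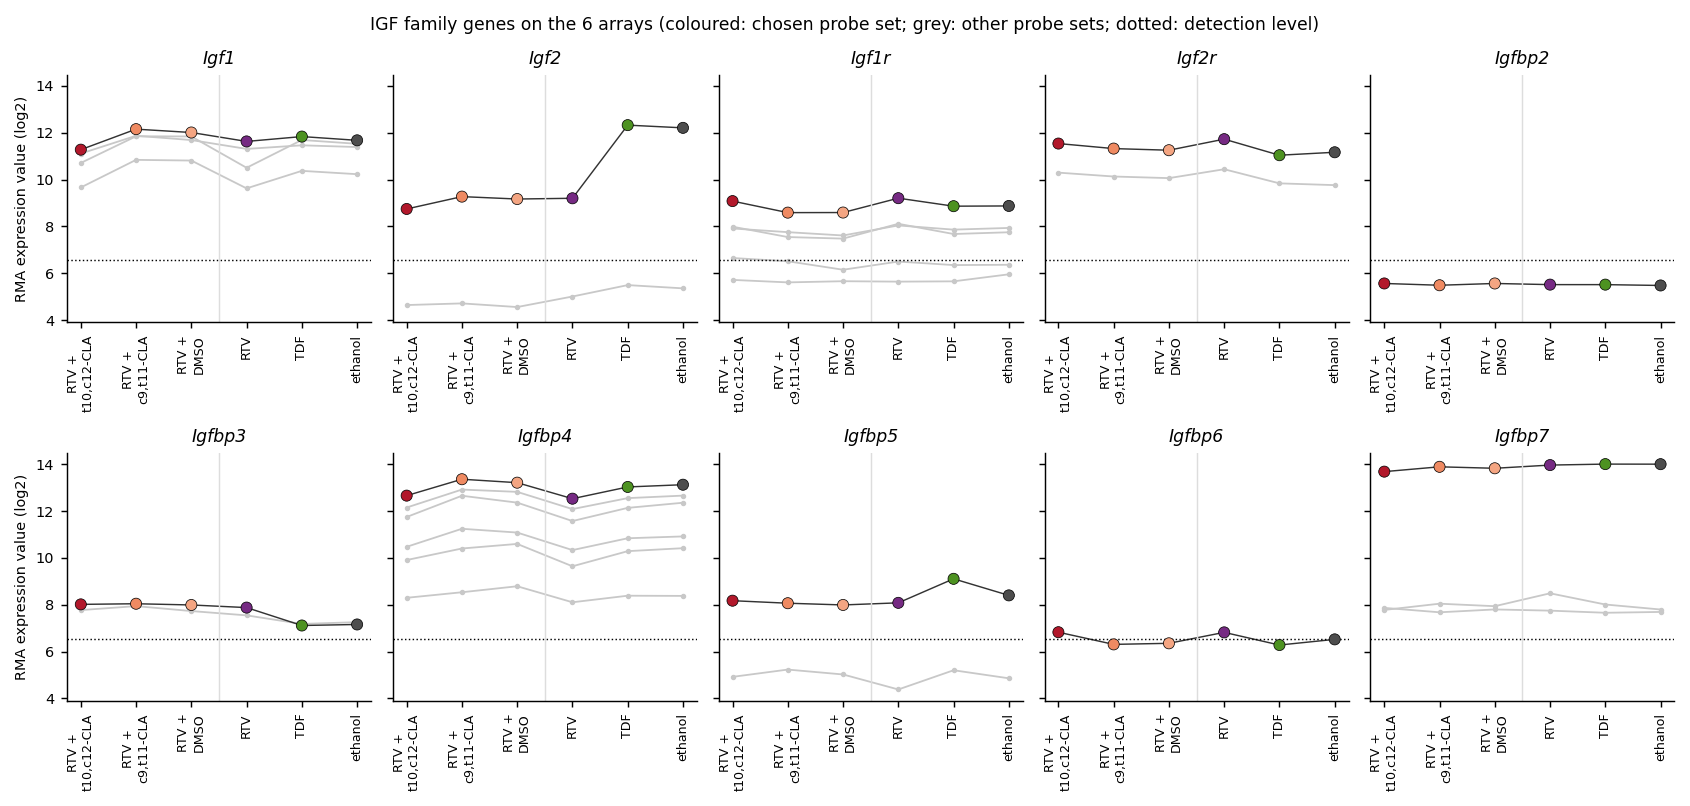
Log2 expression values of the 10 IGF family genes (vertical axes) on the 6 arrays (horizontal axes), with ritonavir written RTV and tenofovir TDF; coloured points are the probe set used, grey lines the other probe sets of the gene, and the dotted line the detection level. Igf2 lies between 8.75 and 9.27 on the 4 arrays with ritonavir and at 12.32 and 12.21 without it, and no other gene spans as wide a range.

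The ligand Igf2 was the family member with the largest difference. Its value was 8.75 with t10,c12-CLA, 9.27 with c9,t11-CLA and 9.17 with DMSO under ritonavir, and 9.20 with ritonavir alone, against 12.32 with tenofovir and 12.21 with ethanol. All 4 arrays with ritonavir lay below both arrays without it, and the gap between the highest of the 4 and the lower of the other 2 was -2.94. These 4 arrays differ in added compound and experiment and are not replicates. Set against ethanol, Igf2 was 8.04-fold lower with ritonavir, a log2 difference of -3.01, and 8.22-fold lower with ritonavir and DMSO, a difference of -3.04. Both comparisons subtract the same ethanol array. An ethanol dose is recorded for that array alone, so that a difference in vehicle cannot be told apart from ritonavir. The second comparison also sets the second experiment against the first. Among the 12386 detected genes, its difference was number 88 from the bottom in the first comparison and number 13 in the second.

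Igf2 and the mature adipocyte markers differed in pattern between ritonavir with DMSO and ritonavir alone. In that comparison 8 of the 11 markers were at least 2-fold higher when DMSO was present, with a median difference of 2.81, beside 2.83% of all detected genes. Igf2 differed by -0.03. Against ethanol, 9 of the 11 markers were at least 2-fold lower with ritonavir, with a median of -3.50, beside 6.39% of all detected genes. With ritonavir and DMSO 5 were, with a median of -0.89, beside 2.99%. Lep, counted in both, reached the detection level only with tenofovir, at 7.10, and with ethanol, at 6.94. Its lower values with ritonavir thus follow in part from the filter. The Igf2 value was thus as low on the array where the markers lay closer to ethanol as on the array where they lay far below it. Except for Fabp4 and Lpl, the 11 markers, like Igf2, lay below both arrays without ritonavir on all 4 arrays with it. Of all detected genes 22.6% did. The part of these markers in the Igf2 difference was not tested. The epithelial markers Epcam, Krt8, Krt18 and Krt19 were low on the same 4 arrays as Igf2, and their part in its difference was not tested. Cldn4, also an epithelial marker, was not, at 6.46 with ritonavir against 6.45 with ethanol and 6.28 with tenofovir. DMSO was given only in the second experiment, so that vehicle and experiment cannot be told apart.

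The other Igf2 probe set gave a smaller difference. It was under the detection level throughout, at 4.64, 4.71 and 4.56 in the second experiment and 5.01 with ritonavir, against 5.49 with tenofovir and 5.36 with ethanol. Its 4 values with ritonavir were again below both without, by a smaller margin. With the mean of both probe sets, Igf2 differed from ethanol by -1.68 with ritonavir and by -1.92 with ritonavir and DMSO.

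**Figure D2:**
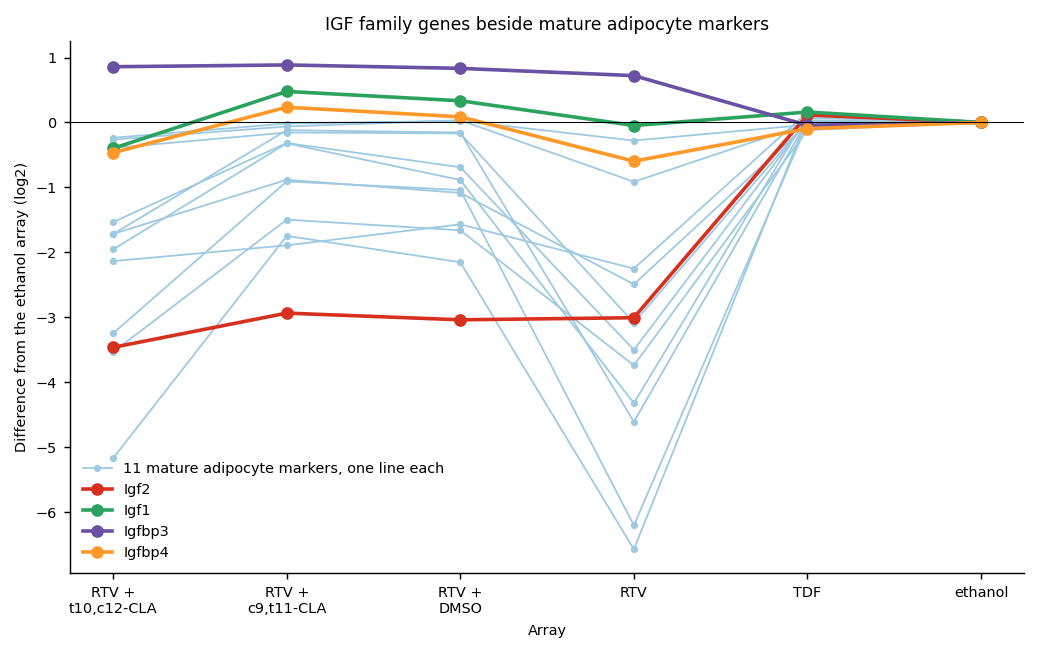
Difference of each array from the ethanol array (vertical axis, log2) for Igf2, Igf1, Igfbp3 and Igfbp4 and for 11 mature adipocyte markers, with arrays along the horizontal axis, ritonavir written RTV and tenofovir TDF. The markers, in light blue, dip most with ritonavir alone, while Igf2 is about as low on each of the 4 arrays with ritonavir and Igfbp3 lies above 0 on them.

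Igf1, the other ligand, was well above the detection level on every array and, in the probe set used, lowest with t10,c12-CLA. It stood at 11.28 with t10,c12-CLA, 12.15 with c9,t11-CLA and 12.01 with DMSO under ritonavir, and at 11.63 with ritonavir, 11.84 with tenofovir and 11.68 with ethanol. With t10,c12-CLA it was 0.73 lower than with DMSO and 0.88 lower than with c9,t11-CLA, or 1.66-fold and 1.84-fold. All 4 probe sets of Igf1 were lower with t10,c12-CLA in both comparisons, between -1.15 and -0.58 against DMSO and between -1.18 and -0.76 against c9,t11-CLA, and 2 of them passed 2-fold in each. With c9,t11-CLA against DMSO they lay between 0.01 and 0.18.

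The Igf1 probe sets did not give one answer for ritonavir alone. The one chosen by its mean level differed from ethanol by -0.05. Another was at 10.50 with ritonavir, against 11.53 with ethanol, a difference of -1.02, and at 10.71 with t10,c12-CLA. The dimmest stood at 9.62 with ritonavir, 9.66 with t10,c12-CLA and 10.23 with ethanol. Both of these were thus lowest with ritonavir alone and not with t10,c12-CLA. All 4 were lower with ritonavir, but by 0.05 to 1.02, and their mean differed by -0.44. With ritonavir and DMSO all 4 were higher than with ethanol, by 0.30 to 0.58. Which parts of the Igf1 transcripts the probe sets cover was not analysed here.

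Neither receptor gene was 2-fold apart in any of the 7 comparisons. Igf1r, the signalling receptor, stood at 9.08 with t10,c12-CLA, 8.59 with c9,t11-CLA and 8.59 with DMSO under ritonavir, and at 9.21 with ritonavir, 8.86 with tenofovir and 8.87 with ethanol. It was thus highest on the 2 arrays where the mature adipocyte markers were lowest. The differences were 0.49 for t10,c12-CLA against DMSO, -0.61 for ritonavir with DMSO against ritonavir and 0.33 for ritonavir against ethanol. All 4 detected probe sets of Igf1r had these same signs.

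Igf2r, which clears IGF2 and sorts lysosomal enzymes, had values of 11.54, 11.32 and 11.25 with t10,c12-CLA, c9,t11-CLA and DMSO under ritonavir and 11.73 with ritonavir, against 11.04 with tenofovir and 11.17 with ethanol. Its 4 values with ritonavir lay above both values without, although the lowest of them did so by only 0.09. Ritonavir against ethanol gave a difference of 0.56, and 0.68 in the second probe set. For ritonavir with DMSO against ethanol the 2 probe sets gave 0.09 and 0.30.

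Among the binding protein genes, Igfbp3, whose product carries most circulating IGF, was higher on all arrays with ritonavir. It stood at 8.01 with t10,c12-CLA, 8.04 with c9,t11-CLA and 7.99 with DMSO under ritonavir and at 7.88 with ritonavir, against 7.11 with tenofovir and 7.16 with ethanol. These 4 values lay close together, and the lowest was 0.72 above the higher of the other 2. The second Igfbp3 probe set kept the order, at 7.77, 7.94, 7.73 and 7.55 with ritonavir against 7.18 with tenofovir and 7.26 with ethanol. Against ethanol the first probe set differed by 0.72 with ritonavir and by 0.83 with ritonavir and DMSO, and the second by 0.29 and 0.47. Neither reached 2-fold.

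Igfbp4, which encodes a binding protein known mainly to restrain IGF action, was far above the detection level on all arrays and lowest on the same pair of arrays as the mature adipocyte markers. Its values were 12.66 with t10,c12-CLA, 13.36 with c9,t11-CLA and 13.21 with DMSO under ritonavir, and 12.53 with ritonavir, 13.03 with tenofovir and 13.12 with ethanol. Against ethanol it was 1.51-fold lower with ritonavir, at -0.60, and differed by 0.09 with ritonavir and DMSO. With t10,c12-CLA it was 0.55 lower than with DMSO and 0.70 lower than with c9,t11-CLA. Each of its 6 probe sets was lower with ritonavir than with ethanol, by 0.27 to 0.78, and lower with t10,c12-CLA than with DMSO, by 0.49 to 0.69.

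**Figure D3:**
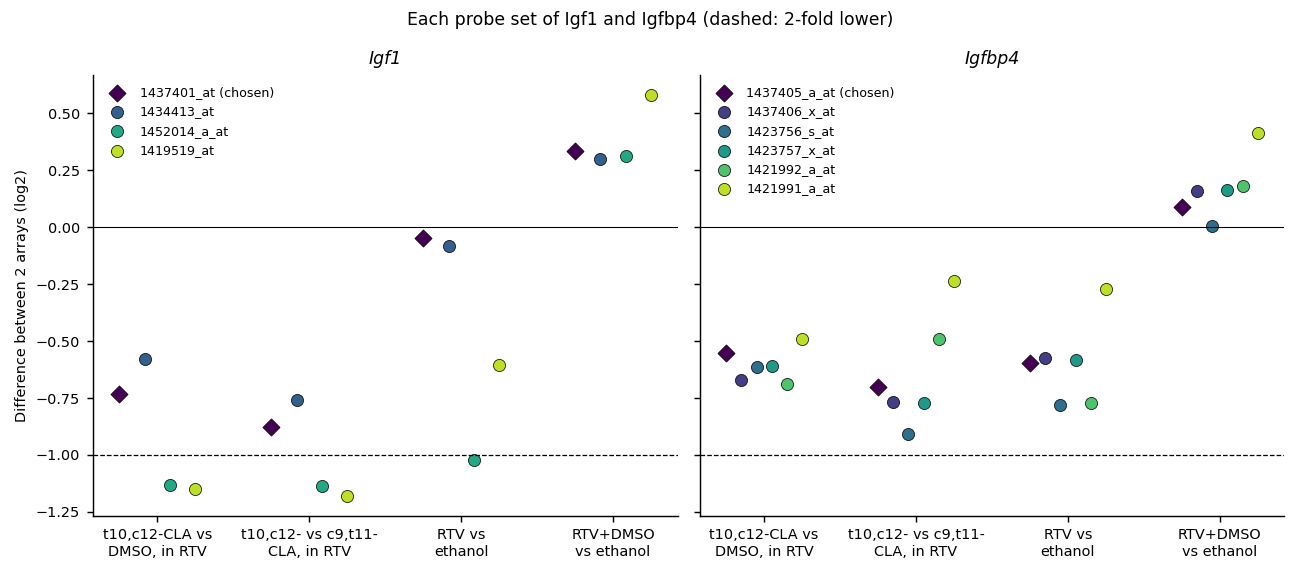
Difference between 2 arrays (vertical axis, log2) for each probe set of Igf1 (left panel) and Igfbp4 (right panel) in 4 comparisons along the horizontal axis, with ritonavir written RTV; diamonds are the probe sets used and circles the others. Every probe set of both genes is lower with t10,c12-CLA, while those of Igf1 spread between -1.02 and -0.05 for ritonavir against ethanol.

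Igfbp5, whose product also binds to extracellular matrix, had its highest value with tenofovir. It stood at 8.17 with t10,c12-CLA, 8.06 with c9,t11-CLA and 7.99 with DMSO under ritonavir, at 8.08 with ritonavir, at 9.11 with tenofovir and at 8.40 with ethanol. The difference of 0.71 between tenofovir and ethanol, 1.63-fold, was number 3 from the top among 12386 detected genes. There 7 genes, or 0.0565%, were at least 1.5-fold higher, and 5, or 0.0404%, lower. The second Igfbp5 probe set gave 5.20 with tenofovir and 4.86 with ethanol, both under the detection level, and the mean of both differed by 0.53. Igfbp5 was singled out here after its value was seen, and 1 array per group does not show whether the difference would recur.

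Igfbp6, whose product prefers IGF2 over IGF1, was near the detection level, with 6.83, 6.31 and 6.35 for t10,c12-CLA, c9,t11-CLA and DMSO under ritonavir and 6.82, 6.28 and 6.52 for ritonavir, tenofovir and ethanol. It reached that level on 2 arrays, those of t10,c12-CLA and of ritonavir alone. Igfbp7, which encodes a matrix protein that binds IGFs weakly, had values between 13.68 with t10,c12-CLA and 14.00 with tenofovir, near the upper end of the scale, where differences can be compressed. Its difference from ethanol was -0.04 with ritonavir, whereas its 2 dimmer probe sets gave 0.69 and 0.06.

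Counted as a family, the IGF genes did not stand out from the background. For ritonavir against ethanol 1 of the 9 detected genes, Igf2, was at least 2-fold lower, beside 6.39% of all detected genes, and 0 were 2-fold higher, beside 4.56%, with 10.9% in either direction. For ritonavir with DMSO against ethanol Igf2 was again the 1 gene, beside 2.99% of all detected genes at least 2-fold lower, 1.52% higher and 4.51% in either direction. The median of the 9 genes was -0.04 in the first comparison and -0.17 in the second, where all detected genes had 0.00 and 0.02. In the other 5 comparisons 0 of 9 were 2-fold apart in either direction. The shares of all detected genes there were 0% for tenofovir against ethanol, 4.91% for ritonavir with DMSO against ritonavir, 0.00807% for c9,t11-CLA against DMSO, 1.83% for t10,c12-CLA against DMSO and 2.48% for t10,c12-CLA against c9,t11-CLA. On all 4 arrays with ritonavir 5 of 9 genes lay on 1 side of both arrays without, Igf2r and Igfbp3 above and Igf2, Igfbp5 and Igfbp7 below. Among all detected genes 28.6% lay above, 22.6% below and 51.2% on either side, so that this count is near the background. It was 3 of 9 where each gene's probe sets were averaged.

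A lower threshold of 1.5-fold added Igfbp3, which was higher with ritonavir than with ethanol, and Igfbp4, which was lower, where 12.4% of all detected genes passed in each direction. For ritonavir with DMSO against ethanol it gave Igfbp3 as higher, beside 6.45% of all genes, and Igf2 as lower, beside 7.69%. For ritonavir with DMSO against ritonavir Igfbp4 was higher, beside 8.43%, and Igf1r lower, beside 6.18%. With t10,c12-CLA against DMSO Igf1 was lower, beside 3.96%, and 0 genes were higher, beside 3.11%. Against c9,t11-CLA both Igf1 and Igfbp4 were lower with t10,c12-CLA, beside 4.96%, and 0 were higher, beside 3.13%. For c9,t11-CLA against DMSO 0 of the 9 passed, where 0.0969% of all genes were higher and 0.0727% lower. Igfbp5 was the 1 gene past 1.5-fold for tenofovir against ethanol.

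**Figure D4:**
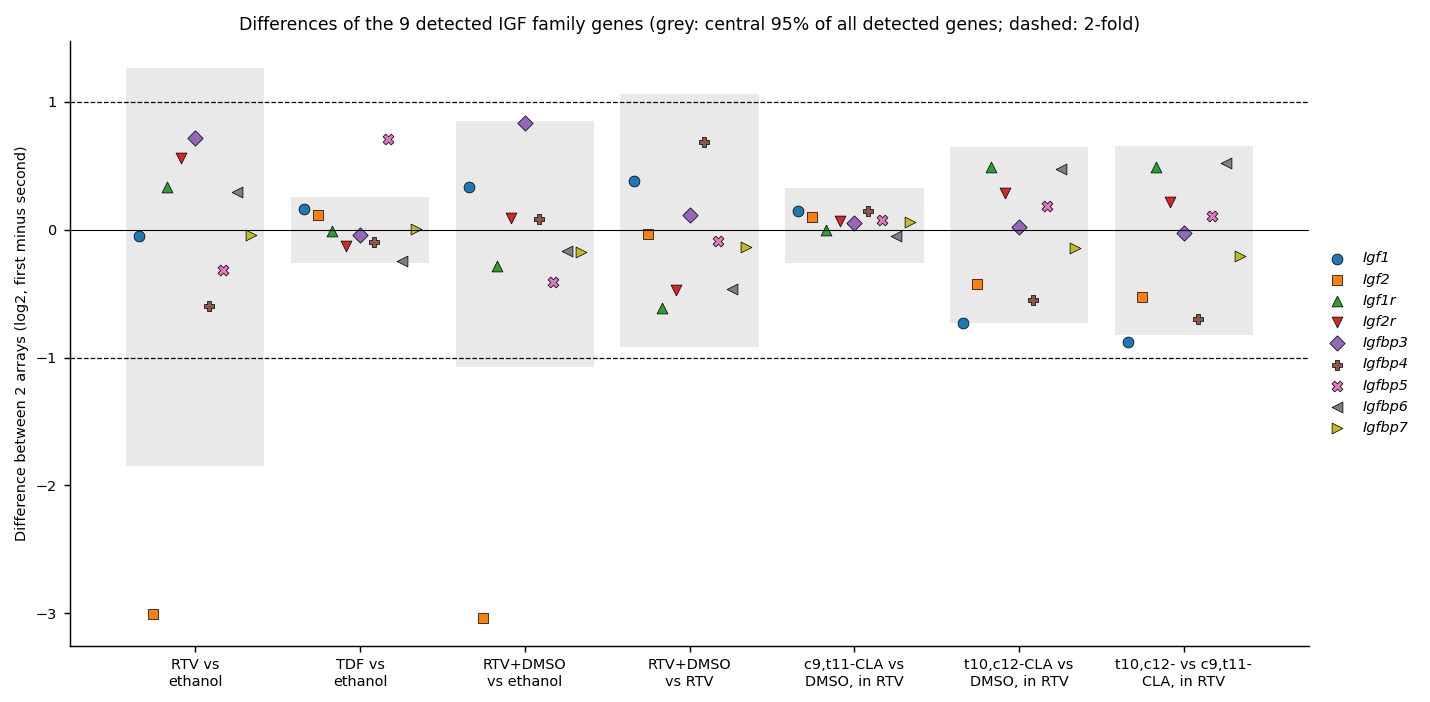
Log2 difference of the 9 detected IGF family genes (vertical axis) in the 7 comparisons (horizontal axis, first array minus second), with ritonavir written RTV and tenofovir TDF; grey boxes span percentiles 2.5 to 97.5 of all detected genes and dashed lines mark 2-fold. Igf2 lies below the box in both comparisons of ritonavir with ethanol, Igf1 at its lower edge for t10,c12-CLA against DMSO and below it against c9,t11-CLA, and Igfbp5 above it for tenofovir.

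The CLA isomers, which differ in the position and order of their cis and trans double bonds, were compared at the same dose and time. Beside DMSO, c9,t11-CLA gave differences between -0.05 for Igfbp6 and 0.15 for Igfbp4, and 7 of the 9 genes were above 0. With t10,c12-CLA against DMSO, the range ran from -0.73 for Igf1 to 0.49 for Igf1r. Set directly against c9,t11-CLA, t10,c12-CLA gave -0.88 for Igf1, -0.70 for Igfbp4, -0.53 for Igf2, -0.21 for Igfbp7, -0.03 for Igfbp3, 0.11 for Igfbp5, 0.22 for Igf2r, 0.49 for Igf1r and 0.52 for Igfbp6. The central 95% of all detected genes, from percentile 2.5 to 97.5, spanned -0.82 to 0.65 in this comparison, and Igf1 alone of the family lay outside it. This pair is 1 comparison of isomers without a test, and with 1 array each no interval of the difference can be given. A DMSO dose is recorded for the control alone, so that isomer and vehicle cannot be told apart in the comparisons with DMSO.

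Other genes of the pathway were taken from 7 lists of 61 genes, 49 of which were detected. For ritonavir against ethanol 5 were at least 2-fold higher and 3 lower, beside 4.56% and 6.39% of all detected genes. For ritonavir with DMSO against ethanol 0 were higher and 4 lower, beside 1.52% and 2.99%. For ritonavir with DMSO against ritonavir 2 were higher and 8 lower, beside 2.83% and 2.07%. For t10,c12-CLA 3 were higher and 0 lower against DMSO, and 3 higher and 1 lower against c9,t11-CLA. None of the 49 was 2-fold apart for tenofovir against ethanol or c9,t11-CLA against DMSO. The share of all detected genes at least 2-fold higher was 0.783% for t10,c12-CLA against DMSO, with 1.05% lower, and 0.953% for t10,c12-CLA against c9,t11-CLA, with 1.53% lower.

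The 3 genes that were higher with t10,c12-CLA in both comparisons all belong to the list of proteases that cut binding proteins and of their inhibitors. Pappa2, which encodes a protease of IGFBP5, stood at 8.09 with t10,c12-CLA, against 7.08 with c9,t11-CLA and 6.89 with DMSO. Plat, the gene of tissue plasminogen activator, had 8.53 with t10,c12-CLA, against 7.27 with c9,t11-CLA and 7.13 with DMSO. Timp1, an inhibitor of metalloproteinases, had 11.16, against 9.71 with c9,t11-CLA and 9.62 with DMSO. The median difference of the 10 detected genes of this list was 0.50 for t10,c12-CLA against DMSO, where all detected genes had 0.02. It was 0.62 for ritonavir against ethanol and -0.88 for ritonavir with DMSO against ritonavir. The 10 detected preadipocyte and fibroblast markers had medians of 0.55, 0.85 and -1.15 in these 3 comparisons, and their part in the protease values was not tested. Htra1, of the protease list, reached the detection level only with t10,c12-CLA, at 6.91, and with ritonavir alone, at 6.68. Its differences of 0.72 from DMSO and 0.63 from ethanol on these arrays enter the medians and follow in part from the filter. On the ritonavir array Plat was 2.42 and the gelatinase gene Mmp2 1.24 higher than with ethanol, and Adam12, which encodes a metalloprotease, differed by -1.14. Pappa, whose product cuts IGFBP4, differed from ethanol by 0.71 with ritonavir and by -0.73 with ritonavir and DMSO. On the DMSO array 5 of the 10 were at least 2-fold lower than with ritonavir alone, beside 2.07% of all detected genes. These were Plat (-2.39), Timp1 (-1.90), Mmp2 (-1.51), Pappa (-1.45) and Pappa2 (-1.27). Stc1, whose product belongs to the stanniocalcins, which inhibit pappalysins, stood at 7.56 with ritonavir and DMSO, against 8.81 with ethanol, and Timp1 at 9.62, against 10.62.

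On the signalling side, the list of receptor relatives, adaptors and kinases had 17 detected genes and a median of -0.15 for ritonavir against ethanol. Irs2, an adaptor shared by the insulin and IGF1 receptors, was at 8.35 with ritonavir, against 10.64 with ethanol, a difference of -2.29. Grb14, an adaptor that restrains insulin receptor signalling, was 1.59 higher. With ritonavir and DMSO, Irs2 differed from ethanol by -0.97 and Grb14 by -0.08. Insr, the insulin receptor gene, differed by -0.36 with ritonavir and by 0.11 with ritonavir and DMSO.

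The growth hormone side controls Igf1 in many tissues, and 1 of its 6 detected genes was 2-fold apart between ritonavir and ethanol, beside 10.9% of all detected genes. This was Socs2, a feedback inhibitor of growth hormone signalling, at 12.29 with ritonavir, against 10.78 with ethanol. Ghr, the growth hormone receptor gene, differed by -0.06 with ritonavir, and by -0.43 for t10,c12-CLA against DMSO. Of other carriers, Igfals, whose product joins IGF and IGFBP3 in a ternary complex, stood at 6.93 with t10,c12-CLA, 8.47 with c9,t11-CLA and 7.93 with DMSO under ritonavir, and at 6.91 with ritonavir, 7.95 with tenofovir and 7.90 with ethanol. It was thus low on the same arrays as the mature adipocyte markers, and it was the 1 pathway gene at least 2-fold lower with t10,c12-CLA than with c9,t11-CLA, at -1.53. Igfbp1 was not detected.

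The mannose 6-phosphate list, which holds the sorting partners of the IGF2 receptor, had 7 detected genes. Gnptg, a subunit of the enzyme that makes the mannose 6-phosphate tag, was 1.04 higher with ritonavir and 0.84 higher with ritonavir and DMSO than with ethanol. The other mannose 6-phosphate receptor gene, M6pr, differed by 0.25 in both. Of the IGF2 mRNA-binding proteins, Igf2bp1 differed by 0.00 and Igf2bp3 by 0.31 for ritonavir against ethanol.

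Igf2 is imprinted, and whether imprinting has a part in its difference was not tested. All 5 detected genes of the imprinted list were lower than with ethanol in both comparisons with ritonavir. Both subtract the same ethanol array, and the share of all detected genes lower than with ethanol was not counted. At least 2-fold lower were 1 of the 5 with ritonavir, beside 6.39% of all detected genes, and 2 with ritonavir and DMSO, beside 2.99%. Phlda2, of this list, reached the detection level on the ethanol array alone, at 6.71, so that its lower values elsewhere follow from the filter. Mest differed by -1.48 with ritonavir and -0.93 with ritonavir and DMSO, and Peg3 by -0.96 and -1.09. Dlk1, a preadipocyte gene, differed by -0.11 with ritonavir and by -1.77 with ritonavir and DMSO, so that its values separated the experiments. The medians were -0.55 and -0.93, where all detected genes had 0.00 and 0.02. The neighbouring gene H19 shares its probe set's annotation with another gene and was not used.

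**Figure D5:**
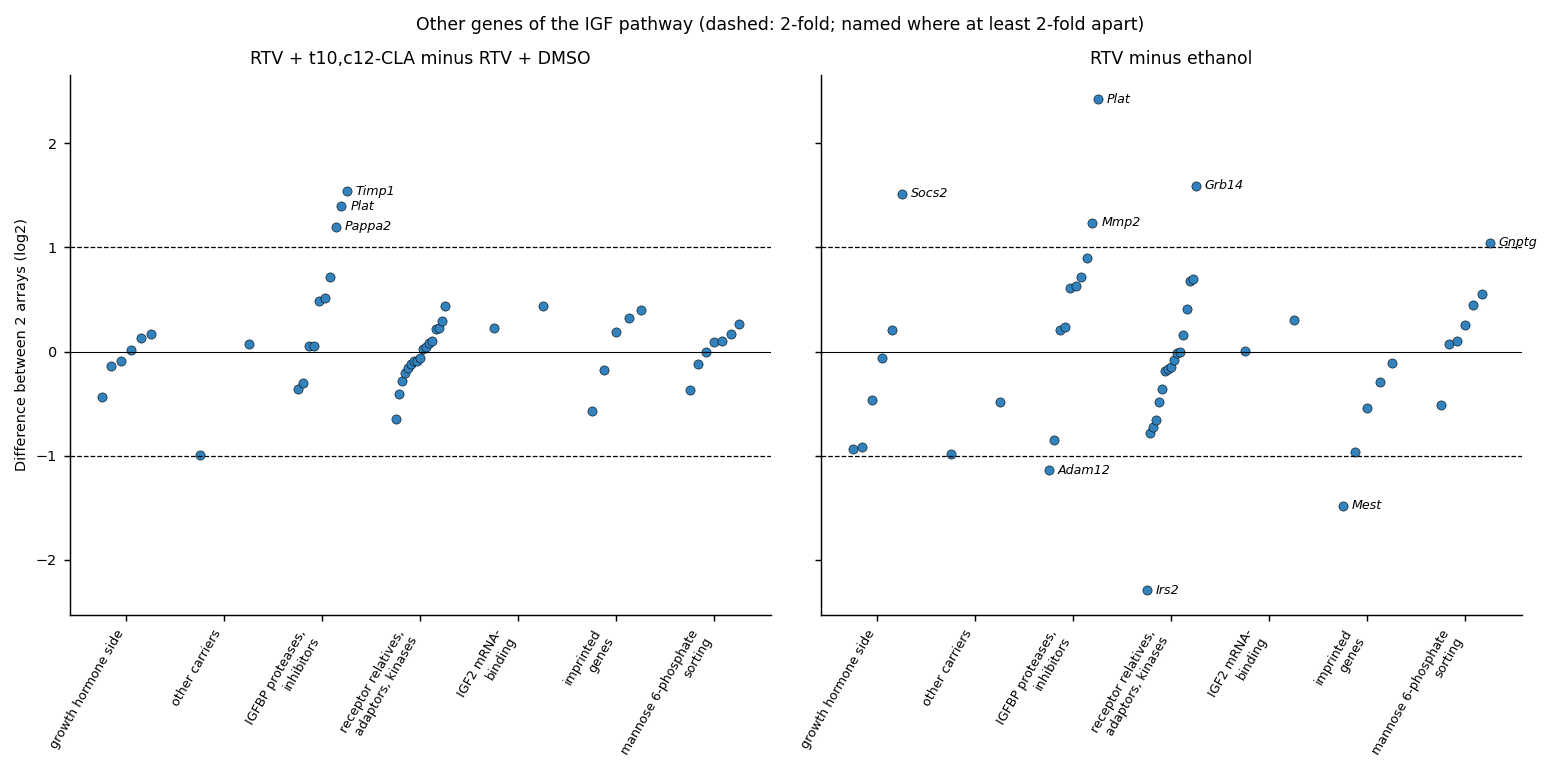
Log2 difference (vertical axis) of each detected gene in 7 pathway lists (horizontal axis), for ritonavir with t10,c12-CLA minus ritonavir with DMSO in the left panel and for ritonavir minus ethanol in the right panel, with ritonavir written RTV; dashed lines mark 2-fold and genes past it are named. Timp1, Plat and Pappa2 lie above the line on the left, and Plat and Irs2 are the farthest from 0 on the right.

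The protein-coding neighbours of Igf2 in the RefSeq order of GRCm38.p6 did not show its pattern. Mrpl23, a mitochondrial ribosomal protein gene, had 11.06, 10.94, 11.08 and 11.16 on the arrays of t10,c12-CLA, c9,t11-CLA, DMSO and ritonavir, against 10.81 with tenofovir and 10.77 with ethanol. Ins2, an insulin gene, lay between 7.77 with DMSO and 8.23 with ethanol. Igfbp5 adjoins Igfbp2, and Igfbp3 adjoins Igfbp1, and Igfbp2 and Igfbp1 were not detected.

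Likeness of pattern was measured for the genes with a range of at least 1 unit as the root mean square distance between 6 log2 values, each profile centred on its own mean, over 11785 detected genes. The genes most like Igf2 were Apoc1, which encodes apolipoprotein C1, at a distance of 0.25, the carbonic anhydrase gene Car9 at 0.27 and Timp4, an inhibitor of metalloproteinases, at 0.29. Apoc1 had 8.04, 8.56, 8.54 and 7.87 on the arrays of t10,c12-CLA, c9,t11-CLA, DMSO and ritonavir, against 11.33 with tenofovir and 11.10 with ethanol. Car9 was under the detection level with ritonavir, on all 4 arrays. Within the family the gene closest to Igf2 was Igfbp5, at a distance of 1.21. For Igfbp5 the closest were Camp at 0.12, Syp at 0.14 and Ramp1 at 0.14. Syp was also under the detection level on all 4 arrays with ritonavir, between 6.16 and 6.42, against 7.03 with tenofovir and 6.67 with ethanol. The 6 arrays share 2 experiments and 4 of them share ritonavir.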

How the data were processed

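RNA of 6 groups of 3T3-L1 cells, pooled from 4 replicate experiments per group, was hybridised to 1 Affymetrix array each, per the labels' protocols. The deposited log2 values come from RMA in Affymetrix Expression Console, per the submitters' processing notes; the software version was not given in the sources used here. This method brings the arrays to one distribution, so that a shift shared by most genes is removed. The table holds 45101 probe sets with values between 2.17 and 15.01.

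Of these, 34958 were annotated to 1 symbol in the platform table and gave 18194 genes, 932 had several and were not used, and 9211 had none. A gene was read from the brightest of its probe sets on average. Genes with any value of 6.55, the median of the table, or more were counted as detected, which left 12386. Log2 differences were taken for 7 pairs of arrays and counted at 2-fold, without a test. Precision is limited by the number of arrays.

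The members, lists and comparisons were chosen with earlier results of these data known. By the naming rule, all members are named, with every pathway list gene at least 2-fold apart or otherwise up to 2 with the largest difference per list, the 3 genes nearest in pattern to Igf2 and Igfbp5, and Adipoq and Pparg. Ghr, Insr and M6pr, as receptor genes of their lists, Phlda2, Htra1, Igfbp1 and the neighbours of members were named outside it, after their values were seen. So were the markers Fabp4, Lpl, Lep, Ptprc, Itgam, Pecam1, Cdh1, Cd68, Csf1r, Cd14, Epcam, Cldn4, Krt8, Krt18 and Krt19. As alternatives, the values were recomputed with the mean of all probe sets, probe sets without suffixes of cross-hybridisation, other detection levels, a further quantile normalization, removal of a lowess trend with a span of 0.3, a 1.5-fold threshold and the other ritonavir array. The counting step was tested on simulated data. Python 3.11.15, numpy 2.4.6, pandas 2.3.3, statsmodels 0.14.6 and matplotlib 3.10.9 were used.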

Additional observations from a re-analysis of the deposited data

How the results depend on the processing

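No paired analysis was possible because each group has 1 array. At a 1.5-fold threshold the IGF genes counted were 3 of 9 for ritonavir against ethanol, 1 for tenofovir against ethanol, 2 for ritonavir with DMSO against ethanol, 2 for ritonavir with DMSO against ritonavir, 1 for t10,c12-CLA against DMSO, 2 for t10,c12-CLA against c9,t11-CLA and 0 for c9,t11-CLA against DMSO. The counts at 2-fold were the same under all other alternatives run, with 7 genes left to count at the detection level of 8.77 and among probe sets without suffixes. With the mean of all probe sets, 3 genes in place of 5 lay on 1 side in all 4 arrays with ritonavir.

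Of 238 single differences recomputed, 0 called ones changed sign, and 217 moved by less than 0.113, the robust SD over genes of tenofovir minus ethanol. The other 21 all came from the mean of all probe sets. This mean gave Igf2 -1.68 for ritonavir against ethanol, in which a probe set under the detection level has equal weight, and turned Igfbp7 to 0.24 there. Genes near the detection level, such as Igfbp6, and near the upper end of the scale, such as Igfbp7, are the least certain.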
